A study of Mus musculus with 6 samples.

Results

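The 9 genes described here, Lyz1, Lyz2, Defa24, Defa3, Ang4, Itln1, Mmp7, Nupr1 and Cd24a, are genes of Paneth cells or of their secretory products. They were taken by symbol from 2 deposited tables of messenger RNA sequencing, of which the first holds 18376 RefSeq entries with 16819 symbols and the second 17076 entries. Each of the 9 genes had 1 row in each table, under the same RefSeq entry, and all 9 were tested. Mice were C57BL/6 and had received tamoxifen 3 times; 6 days later Lgr5-GFP+ cells were sorted from the crypts of the small intestine and their RNA was sequenced. The cells of all 4 groups carried Lgr5Gfp-CreERT2, a green fluorescent reporter and a tamoxifen-activated Cre recombinase driven from the Lgr5 locus, which is active in crypt stem cells. The RingKO group (2 libraries) carried in addition Ring1a-/- and Ring1bf/f alleles, and the WT group (2 libraries) carried the Cre alone. The Bcat_RingKO group (1 library) carried Ctnnb1-ex3, an allele of the beta-catenin gene, together with Ring1a-/- and Ring1bf/f, and the Bcat group (1 library) carried Ctnnb1-ex3 without the Ring alleles. The genotype label of the Bcat library reads WT, and its Ctnnb1-ex3 allele is given by its strain and title. Ring1a and Ring1b (gene symbols Ring1 and Rnf2) are the catalytic subunits of Polycomb repressive complex 1, and the series asks what part this complex plays in the intestine. The question taken up here is whether the Paneth genes moved in the same direction in RingKO against WT and in Bcat_RingKO against Bcat.

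Paneth cells sit between the Lgr5+ stem cells at the crypt base and release antimicrobial peptides and enzymes from large granules. Wnt signalling through beta-catenin drives both stem cell upkeep and Paneth cell maturation, and some granule genes, among them alpha-defensin genes and Mmp7, are known as targets of beta-catenin and its TCF partners. The gate selects Lgr5-GFP+ cells and not mature Paneth cells, and which sorted cells held these transcripts was not tested. In bulk RNA, more cells of a type and more RNA per cell cannot be told apart.

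The near-identity of the defensin copies bears on every value given for them. Defa3 (chr8:21287409-21288377, plus strand) and Defa24 (chr8:21734494-21735471, plus strand) have coding sequences of 282 bases that differ at 12 positions, an identity of 95.7%. The coding sequences are given here from the GENCODE M21 transcripts on build GRCm38, with the differing bases in capitals.
Defa3: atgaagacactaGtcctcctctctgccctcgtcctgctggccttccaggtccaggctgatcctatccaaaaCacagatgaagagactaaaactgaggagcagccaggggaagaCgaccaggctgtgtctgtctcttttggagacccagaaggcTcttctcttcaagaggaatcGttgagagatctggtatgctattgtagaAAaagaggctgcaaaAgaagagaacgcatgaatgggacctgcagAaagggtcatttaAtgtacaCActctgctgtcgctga
Defa24: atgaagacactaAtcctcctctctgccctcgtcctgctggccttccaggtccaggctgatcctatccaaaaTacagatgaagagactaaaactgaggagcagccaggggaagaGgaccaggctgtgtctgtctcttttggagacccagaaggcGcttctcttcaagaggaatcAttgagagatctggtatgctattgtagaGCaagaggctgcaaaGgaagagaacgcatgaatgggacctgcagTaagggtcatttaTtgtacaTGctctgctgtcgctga
The longest run of identical bases between these 2 transcripts is 58. Against 28 other alpha-defensin genes of the annotation, the Defa3 transcript of 410 bases shares a run of at least 100 bases with 2 and of at least 50 bases with 14, and its longest run, 369 bases, is with Defa17. The Defa24 transcript shares no run of at least 100 bases with any of the 28 and a run of at least 50 bases with 9. A read from a shared run cannot be assigned to 1 copy, so the single values of Defa3 in particular are uncertain. The read counter that made the deposited values is not given in the sources used here.

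Lyz1 and Lyz2, the Paneth and the macrophage-type lysozyme genes, are neighbouring copies. Their coding sequences of 447 bases are 95.1% identical, with a longest shared run of 118 bases. The 250 bases before their annotated starts differ more, with 79.4% identity, and are given here because these 2 copies had different levels and changes in the same libraries. The sequences are from RefSeq on build GRCm38.p6, chr10:117292869-117293118 for Lyz1 and chr10:117282273-117282522 for Lyz2, both on the minus strand, with differing or unmatched bases in capitals.
Lyz1: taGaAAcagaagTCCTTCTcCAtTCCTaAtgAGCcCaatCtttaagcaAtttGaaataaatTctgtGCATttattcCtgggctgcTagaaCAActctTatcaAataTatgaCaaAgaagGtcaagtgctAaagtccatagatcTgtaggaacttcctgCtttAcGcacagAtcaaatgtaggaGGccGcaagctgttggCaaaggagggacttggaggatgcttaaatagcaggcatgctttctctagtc
Lyz2: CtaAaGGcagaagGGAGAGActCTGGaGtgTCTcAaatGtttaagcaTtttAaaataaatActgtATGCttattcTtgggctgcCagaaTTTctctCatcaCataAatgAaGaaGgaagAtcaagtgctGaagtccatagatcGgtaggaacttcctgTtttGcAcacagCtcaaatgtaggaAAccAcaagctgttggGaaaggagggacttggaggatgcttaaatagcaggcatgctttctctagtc
Most differences lie far from the start, and the last 50 bases before the start are the longest shared run.

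Because beta-catenin acts through TCF factors, the promoter windows (250 bases before to 50 after each annotated start, RefSeq, GRCm38.p6) were searched on both strands for AACAAAG and for the same letters beginning otherwise, namely ATCAAAG or else TACAAAG or else TTCAAAG. Of 32851 windows of this length 16.9% held a match. Of the 9 genes 6 had a window, and 1 of these, Mmp7, held a match, an ATCAAAG that begins 4 bases after the first of its annotated starts. No window was matched for Defa3, Defa24 or Cd24a. Among 16 other alpha-defensin genes with a window, 13 held a match, and these windows are copies of each other rather than independent sequences. Only 3 of the 16, Defa20, Defa21 and Defa22, carry a symbol of the deposited tables, and each had the motif 112 and 72 bases before its start. The windows of Mmp7 (chr9:7691840-7692139, plus strand) and Defa21 (chr8:21025295-21025594, plus strand) are shown with the motif in capitals.
Mmp7: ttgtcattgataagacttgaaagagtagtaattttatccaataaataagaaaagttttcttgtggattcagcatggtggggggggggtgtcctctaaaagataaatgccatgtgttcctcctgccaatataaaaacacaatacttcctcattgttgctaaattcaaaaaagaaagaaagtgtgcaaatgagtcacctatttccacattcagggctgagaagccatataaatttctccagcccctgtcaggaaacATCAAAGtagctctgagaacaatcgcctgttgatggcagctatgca
Defa21: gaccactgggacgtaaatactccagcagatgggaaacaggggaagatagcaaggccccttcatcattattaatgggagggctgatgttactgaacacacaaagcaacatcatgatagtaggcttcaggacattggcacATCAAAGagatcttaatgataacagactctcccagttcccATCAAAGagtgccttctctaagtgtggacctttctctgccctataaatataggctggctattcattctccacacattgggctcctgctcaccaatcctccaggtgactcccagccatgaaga
A match is a run of letters and not evidence of binding. The 6 genes with a window had few CpG dinucleotides, with a median of 2 per window (range 0 to 7), against a median of 7 over all windows.

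Reads assigned to the entries came to 2911422 and 2651201 in the RingKO libraries, 6753789 and 6294932 in the WT libraries, 4470853 in Bcat_RingKO and 922153 in Bcat. The Bcat library was the shallowest, and each ratio against it carries the counting error of its reads. The deposited first table holds group means, from which the reads of single libraries were recovered. Within a group, A is the library with the larger scaling factor, which also had more reads, and B is the other. The letters carry no replicate number. No label ties the libraries to different mice. A p-value here therefore sets a group difference against the spread between libraries, part or all of which could be technical. Ring1 had 9 and 11 reads in the RingKO libraries, against 484 and 363 in the WT libraries, and in the authors' deposited table its log2 value was -4.17 (adjusted p = 1.26e-26). In the other pair it had 43 reads in Bcat_RingKO and 24 in Bcat, a normalized ratio of 0.358 (95% counting interval 0.213 to 0.617). By edgeR the log2 change of Ring1 in RingKO against WT was 2.39 ± 0.47 units further below 0 than in Bcat_RingKO against Bcat (difference -2.39, adjusted p = 0.0198), with 1 library in each group of the second pair. Counts over the whole Rnf2 and Ctnnb1 transcripts check neither the floxed nor the Ctnnb1-ex3 allele. Levels are given in RPM, reads scaled to a library total of 1000000 recovered reads. Lgr5 stood at 158 and 83.7 RPM in RingKO, 139 and 146 in WT, 337 in Bcat_RingKO and 158 in Bcat. Rnf2 counted over its whole transcript was at 48.8 and 38.9 RPM in RingKO and 32.6 and 39.1 in WT. In the other pair it was at 122 in Bcat_RingKO and 84.6 in Bcat, and loss of the floxed part was not tested.

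In RingKO against WT, 6 of the 9 genes rose and 0 fell, a rise or fall being called where the adjusted p that the authors deposited was below 0.05. Over all 18376 entries 3.14% rose and 1.76% fell, and 3.8% of the 7939 entries averaging 50 or more normalized reads rose. From the recovered reads, edgeR's quasi-likelihood test, DESeq2 and limma-trend also each called 6 of the 9 genes as higher and 0 as lower. Over all entries edgeR called 9.91% higher and 2.95% lower, DESeq2 6.88% and 1.89%, and limma-trend 6.98% and 5.34%. The genes that rose were Ang4, Defa24, Defa3, Itln1, Lyz1 and Mmp7. Lyz2, Nupr1 and Cd24a did not pass. In Bcat_RingKO against Bcat, all 9 genes had a lower value, against 48.1% of 17076 entries (8 of 9 when scaled by total reads, where Nupr1 was at 0.01), and 7 were at least 2-fold lower, against 20.8% of all entries and 7.94% of the 7365 entries averaging 50 or more. With 1 library in each of these groups there is no replicate check. The authors' deposited table gives a p-value for each entry of this pair, which rests on no replicates and is not used, and no other test of the pair was made. The median log2 fold change of the 9 genes in the authors' deposited table was 1.48 in RingKO against WT (0.02 over all entries) and -1.75 in Bcat_RingKO against Bcat (0.00 over all entries). Together the 9 genes took 0.983% and 1.32% of all reads in RingKO, 0.444% and 0.321% in WT, 0.181% in Bcat_RingKO and 0.577% in Bcat. RPM values are set side by side across the 2 tables only as levels, since the authors scaled the tables separately.

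**Figure D1:**
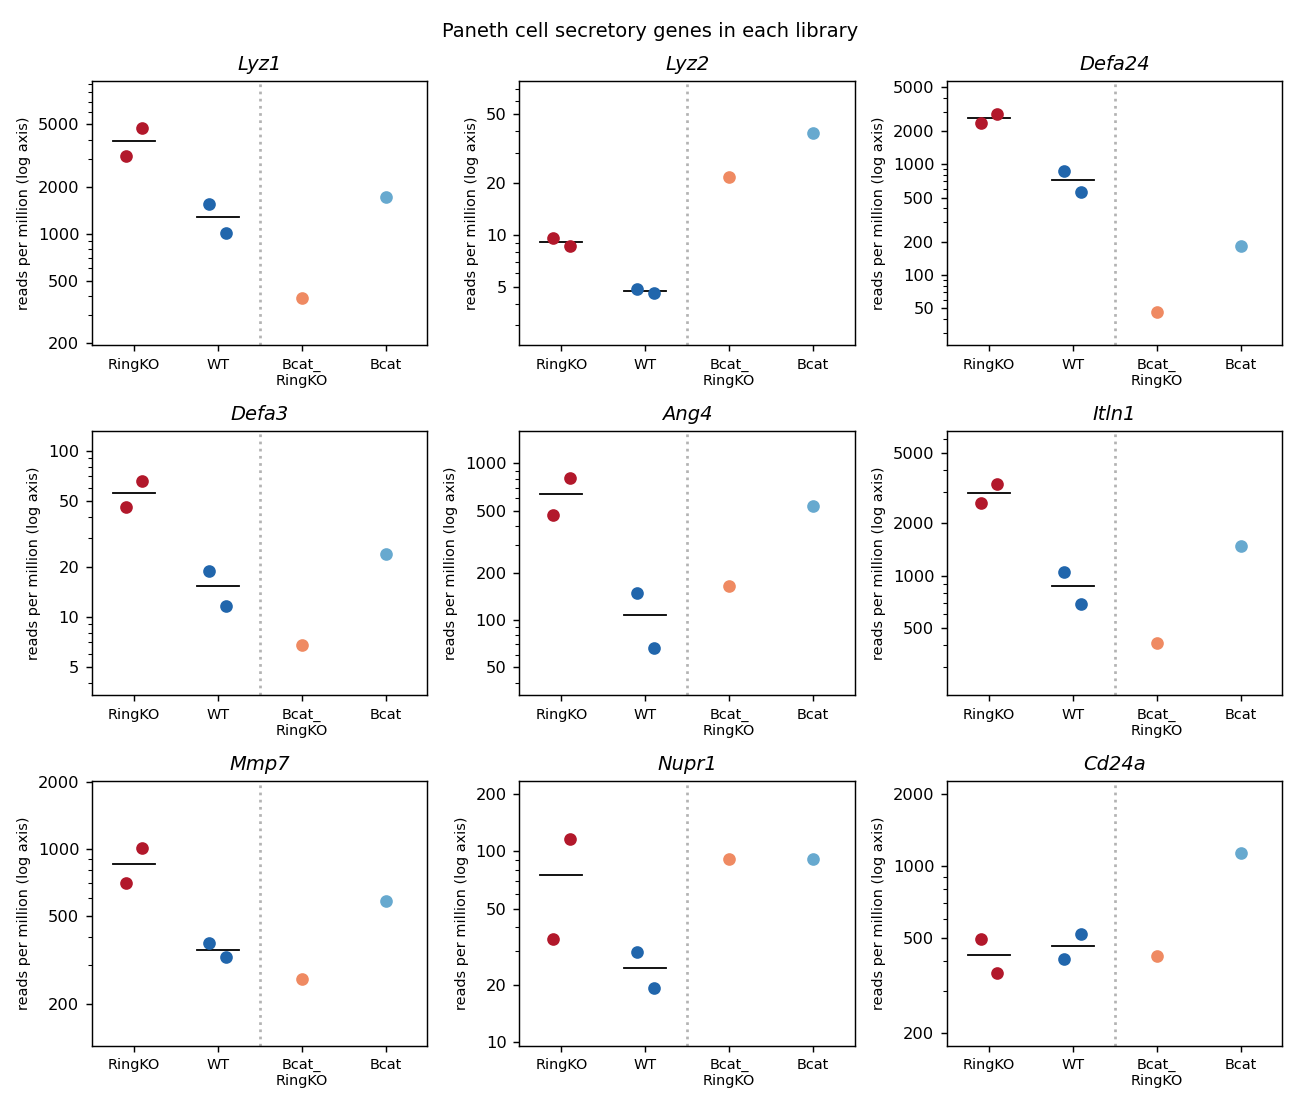
Levels in RPM (log axis, a range of its own for each gene) of the 9 genes in each library. Points are libraries, horizontal lines are means of 2 libraries, and the dotted line separates RingKO and WT from Bcat_RingKO and Bcat, which have 1 library each. In 8 of the 9 panels both RingKO points lie above both WT points, the exception being Cd24a, and the Bcat_RingKO point lies below the Bcat point in every panel but that of Nupr1.

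Lyz1 encodes the lysozyme of Paneth granules, which cleaves bacterial cell walls. It had 3136 and 4735 RPM in the RingKO libraries, against 1549 and 1003 in the WT libraries, and 386 in Bcat_RingKO, against 1708 in Bcat. Both RingKO libraries were above both WT libraries, and the Bcat_RingKO library was the lowest of the 6. The authors' deposited log2 fold change of Lyz1 in RingKO against WT was 1.48 (adjusted p = 0.0114), and edgeR's quasi-likelihood estimate from the recovered reads was 1.66 ± 0.27 (SE, 2 libraries per group). In the other pair the normalized ratio of Lyz1 was 0.219, with a 95% counting interval of 0.205 to 0.235. The neighbouring copy Lyz2, expressed mainly in macrophages and other myeloid cells, was far lower. Lyz2 had 9.62 and 8.68 RPM in RingKO, against 4.89 and 4.61 in WT, and 21.7 in Bcat_RingKO, against 39.0 in Bcat. The RingKO libraries did not overlap the WT libraries, but each library of this comparison held only 23 to 33 Lyz2 reads. Its deposited log2 fold change was 0.82 (adjusted p = 0.671), and by edgeR it was 0.99 ± 0.31 with a Benjamini-Hochberg adjusted p of 0.0822. For Bcat_RingKO over Bcat the ratio of Lyz2 was 0.539 (0.364 to 0.814). Against Lyz1 reads in the same library, Lyz2 stood at 0.307% and 0.183% in RingKO, 0.315% and 0.460% in WT, 5.62% in Bcat_RingKO and 2.29% in Bcat. How many Lyz2 reads are misassigned reads of the abundant copy was not tested.

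Markers of macrophages and neutrophils were read beside Lyz2. Of 19 such genes listed for RingKO and WT, 0 passed the authors' test in either direction and 0 had an unadjusted p below 0.05 in the authors' table. Most had too few reads for another test, and 0 of the 4 that edgeR tested and 0 of the 7 with an adjusted p from DESeq2 passed. Their summed level was 74.9 and 89.8 RPM in RingKO, 66.8 and 59.6 in WT, 159 in Bcat_RingKO and 164 in Bcat. The leukocyte genes Ptprc and Itgam each had 0 reads in both RingKO libraries and 2 reads in 1 WT library. In the Bcat pair 10 of 17 of these markers were at least 2-fold lower in Bcat_RingKO, against 20.8% of all entries. Their median deposited log2 ratio was -1.32. Most had few reads in this pair, where the read that the authors added to each count favours a lower value in Bcat_RingKO. C1qa, with 0 reads in Bcat, is counted as lower. Cd68 instead had 283 reads in Bcat_RingKO, against 6 in Bcat. Cx3cr1 had 3 reads in Bcat_RingKO, against 20 in Bcat. The part of these cells in the Lyz2 values was not tested.

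The alpha-defensins are the most abundant antimicrobial peptides of mouse Paneth cells. Defa24 had 2366 and 2830 RPM in RingKO, against 863 and 567 in WT, and 46.3 in Bcat_RingKO, against 183 in Bcat. It was high in both RingKO libraries and lowest in Bcat_RingKO, and even the Bcat library was below both WT libraries. Its deposited log2 fold change was 1.72 (adjusted p = 1.26e-16), edgeR gave 1.90 ± 0.23, and Bcat_RingKO over Bcat came to 0.245 (0.199 to 0.302). Defa3 had 46.0 and 65.6 RPM in RingKO, against 19.0 and 11.6 in WT, and 6.71 in Bcat_RingKO, against 23.9 in Bcat. The 2 genotypes of the first pair did not overlap. The deposited log2 fold change of Defa3 was 1.72 (adjusted p = 0.000188), and edgeR gave 1.90 ± 0.26. Its Bcat ratio, 0.273 (0.152 to 0.496), rests on 30 reads in Bcat_RingKO and 22 in Bcat. Defa17, with which Defa3 shares its longest run, had 372 and 295 RPM in RingKO, against 142 and 98.0 in WT, and 14.1 in Bcat_RingKO, against 45.5 in Bcat. Defa17 also rose in the authors' deposited table (log2 fold change 1.34, adjusted p = 0.0142). With the reads of all alpha-defensin entries added to 1 feature, which is not affected by how reads were split between listed copies, edgeR's log2 fold change was 2.03 ± 0.32 (adjusted p = 0.00443).

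Ang4, an angiogenin-family ribonuclease that kills gut bacteria, had the largest fold of the 9 genes. It stood at 466 and 803 RPM in RingKO, against 148 and 66.2 in WT, and at 164 in Bcat_RingKO, against 537 in Bcat. The WT libraries differed from each other more for Ang4 than for any other of the 9 genes, with a ratio of normalized reads of 2.18, yet they did not reach either RingKO library. The deposited log2 fold change was 2.42 (adjusted p = 0.00696), edgeR gave 2.60 ± 0.39, and the Bcat ratio was 0.297 (0.265 to 0.333). Itln1, intelectin-1, a lectin that binds microbial sugars, had 2579 and 3327 RPM in RingKO, against 1047 and 691 in WT, and 415 in Bcat_RingKO, against 1479 in Bcat. RingKO again lay wholly above WT. Itln1 had a deposited log2 fold change of 1.62 (adjusted p = 2.24e-08), an edgeR estimate of 1.81 ± 0.24 and a Bcat ratio of 0.272 (0.253 to 0.292).

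Mmp7, matrilysin, is the protease that cuts alpha-defensin precursors into active peptides in mouse Paneth cells. It had 698 and 1007 RPM in RingKO, against 374 and 325 in WT, and 260 in Bcat_RingKO, against 585 in Bcat. The groups of the first pair did not overlap, and the Bcat_RingKO library was the lowest of the 6. Mmp7 had a deposited log2 fold change of 1.14 (adjusted p = 0.00696), edgeR gave 1.32 ± 0.20, and its Bcat ratio was 0.431 (0.389 to 0.478). In fits that leave out a library, the lone library of that group is assumed to vary like the other group. Without WT library B the edgeR Benjamini-Hochberg adjusted p of Mmp7 was 0.0574 at a log2 fold change of 1.23.

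Nupr1 encodes a small chromatin protein that is induced by cell stress, and it is not itself secreted from granules. It had 34.7 and 117 RPM in RingKO, against 29.6 and 19.2 in WT, and 91.5 in Bcat_RingKO, against 91.1 in Bcat. RingKO library B was apart from the other 3 libraries of its pair, and RingKO library A lay just above the WT libraries. The deposited log2 fold change of Nupr1 was 1.46 (adjusted p = 0.869), and edgeR gave 1.65 ± 0.48 (adjusted p = 0.0608). Without RingKO library A the edgeR log2 fold change was 2.27 (adjusted p = 1.15e-06, from the spread between the WT libraries alone), against 0.57 when RingKO library B was dropped (adjusted p = 0.121, likewise). Its Bcat ratio of 0.974 has an interval that holds 1 (0.768 to 1.25), so no difference was detectable in that pair.

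Cd24a encodes a surface glycoprotein that is high on Paneth cells and is also found on other crypt cells such as tuft and enteroendocrine cells. It had 494 and 355 RPM in RingKO, against 409 and 519 in WT, and 420 in Bcat_RingKO, against 1125 in Bcat. The RingKO and WT libraries overlapped, and the Bcat library stood above the other 5. The deposited log2 fold change was -0.26 (adjusted p = 1) and edgeR gave -0.08 ± 0.21, while the Bcat ratio was 0.362 (0.335 to 0.391). The edgeR estimate for RingKO against WT changed sign when RingKO library B (0.16) or WT library B (0.09) was left out.

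Over the 9 genes, both RingKO libraries were above both WT libraries for 8, a pattern that 18% of all 18376 entries showed. The WT libraries moved together across the set. Library A had the higher normalized reads for 8 of the 9 genes, by 1.47 to 1.59 times for Lyz1, Defa24, Defa3, Itln1 and Nupr1, by 1.12 times for Mmp7 and by 1.03 times for Lyz2, and the lower for Cd24a. In RingKO library B had the higher normalized reads for 7 of the 9 genes, the exceptions being Lyz2 and Cd24a. Over 7901 abundant entries the log2 ratio of library A to B had an SD of 0.449 in RingKO and 0.241 in WT. Leaving out each library in turn, edgeR called as higher 7 of the 9 genes without RingKO library A (15.9% of all entries tested), 6 without RingKO library B (11%), 6 without WT library A (4.4%) and 5 without WT library B (4.78%).

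**Figure D2:**
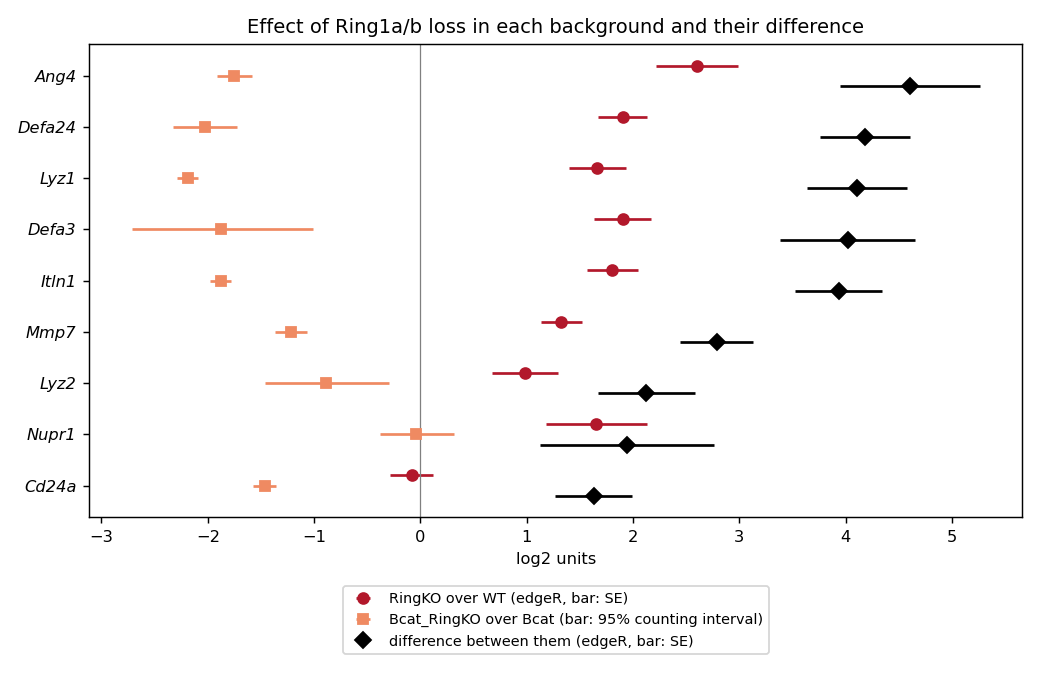
Log2 change of each of the 9 genes (rows) with the Ring1a-/- and Ring1bf/f alleles. Circles are RingKO against WT (edgeR estimate, bar 1 SE). Squares are Bcat_RingKO against Bcat (ratio of 2 libraries, bar 95% counting interval). Diamonds are the difference of the first minus the second (edgeR, bar 1 SE). The circles of 8 genes lie right of 0 and that of Cd24a near 0, no square lies right of 0 by more than its interval, and the differences run from 1.63 for Cd24a to 4.60 for Ang4.

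The difference between the 2 effects was tested directly as an interaction over all 6 libraries, taken as RingKO minus WT less Bcat_RingKO minus Bcat. In this fit the lone Bcat_RingKO and Bcat libraries are assumed to vary like the replicated ones, since the spread comes wholly from RingKO and WT. An effect of genotype and an effect of a single library cannot be told apart in the second pair, and the p-values hold only under that assumption. In edgeR, with p-values adjusted by Benjamini-Hochberg over all entries, 8 of the 9 genes had a higher effect in the first pair and 0 a lower one, against 5.63% and 5.29% of the 12302 entries tested. DESeq2 called 7 of the 9 as higher, against 9.99% higher and 3.6% lower over all entries. It gave no adjusted p for Lyz2. The differences in log2 units were 4.60 ± 0.66 for Ang4 (adjusted p = 0.00863), 4.18 ± 0.42 for Defa24 (adjusted p = 0.00570) and 4.10 ± 0.47 for Lyz1 (adjusted p = 0.00570). They were followed by Defa3 at 4.02 ± 0.63 (adjusted p = 0.0115), Itln1 at 3.93 ± 0.41 (adjusted p = 0.00570) and Mmp7 at 2.79 ± 0.34 (adjusted p = 0.00586). For these 6 genes the effects also have opposite signs, with a rise in RingKO and a ratio under 1 in the Bcat pair. Lyz2 differed by 2.12 ± 0.46 (adjusted p = 0.0267) and Cd24a by 1.63 ± 0.36 (adjusted p = 0.0295). For Cd24a the RingKO-against-WT estimate was near 0 and the Bcat ratio was below 1. For Nupr1 the difference was 1.94 ± 0.82 (adjusted p = 0.160). Over all entries tested the median difference was -0.20, and the summed alpha-defensin reads differed by 4.29 ± 0.55 (adjusted p = 0.00570). The call of Cd24a was lost without WT library A (adjusted p = 0.0849), and that of Lyz2 without WT library A (0.0612) or B (0.0799).

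Such opposite behaviour was uncommon among genes that rose in RingKO. All 577 entries that rose are also in the second table, where 497 were at least 2-fold higher and 20 at least 2-fold lower in Bcat_RingKO than in Bcat, that is 3.47% of those that rose and 0.122% of the 16387 entries in both tables. The 20 were 6 of the 9 genes (Ang4, Defa24, Defa3, Itln1, Lyz1 and Mmp7), 9 other alpha-defensin entries, 2 other genes listed as Paneth products (Mptx2 and Clps) and 3 more. The 3, named after their values were seen, were Spink4, which is listed here among goblet cell markers, the calcium-binding protein gene S100g and the noncoding entry Gm17821. The defensin entries share reads and count as less than 9 independent genes. Of these, Gm14850 rests on 1 read in each library of the Bcat pair, and Defa5 on 11 in Bcat_RingKO and 10 in Bcat.

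**Figure D3:**
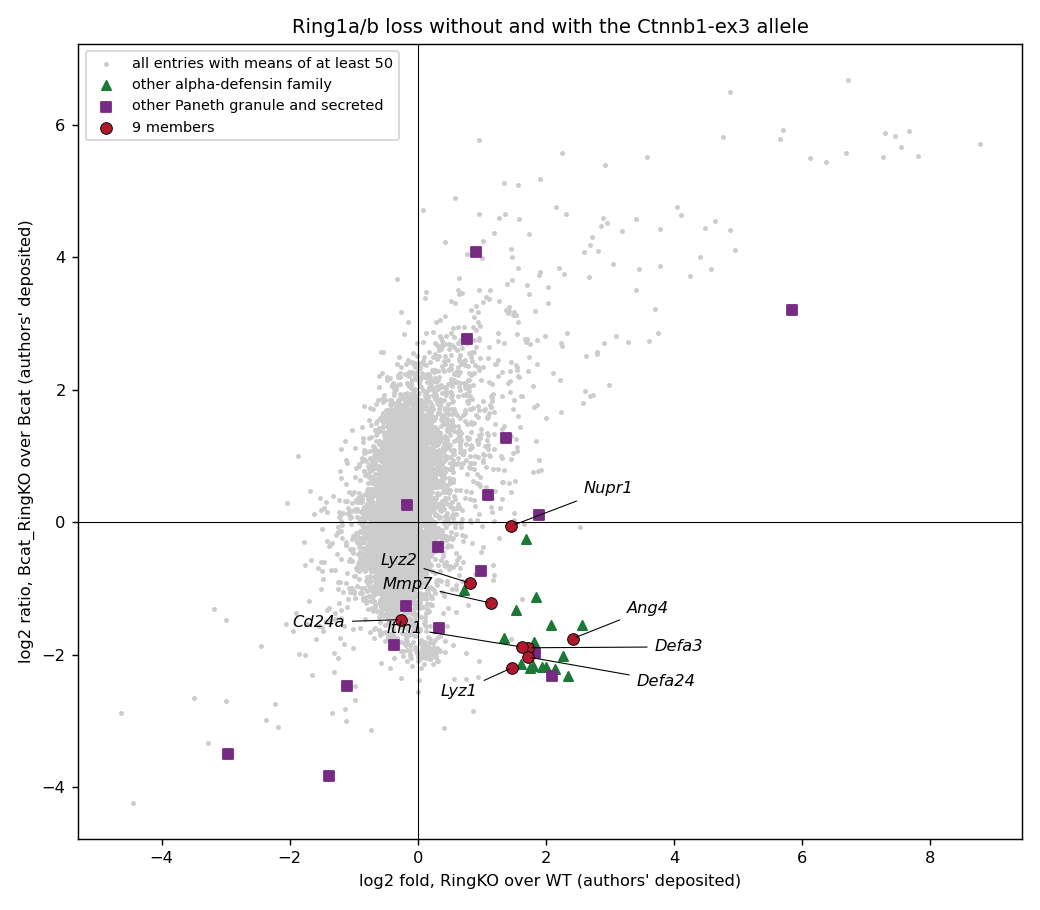
The authors' deposited log2 fold change in RingKO over WT (horizontal axis) against the deposited log2 ratio of Bcat_RingKO over Bcat (vertical axis), with grey points for entries averaging 50 or more in both tables. Circles are the 9 genes, triangles other alpha-defensin entries and squares other Paneth granule and secreted genes, at any level. Most genes far to the right lie above 0, whereas 8 of the 9 circles lie clearly below 0 on the vertical axis and 7 of these 8 are right of 0.

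The remaining alpha-defensin entries were in part higher in RingKO. Among the 19 listed for RingKO and WT, 9 rose, 0 fell and 10 did not pass (median log2 fold change 1.95). Of the 14 that edgeR tested 12 were higher and 0 lower, against 9.91% and 2.95% over all entries. DESeq2 called 9 of 18 as higher, against 6.88% over all entries. Among the 16 listed for the Bcat pair, 15 were at least 2-fold lower in Bcat_RingKO by the deposited ratios (median -1.90). These ratios carry the read that the authors added to each count. Defa20 is counted as lower only through that read, with 0 reads in Bcat and 1 in Bcat_RingKO. Gm14850 had 1 read in each library of this pair. Without the added read Gm10104 had a ratio of 0.52 (counting interval 0.243 to 1.21). Of the alpha-defensin entries listed, Gm15284 had 1848 and 2391 RPM in RingKO, against 703 and 398 in WT, and 64.9 in Bcat_RingKO, against 283 in Bcat. Its deposited log2 fold change of 1.80 had an adjusted p of 4.34e-08 in the authors' deposited table. AY761184 (2.14, adjusted p = 0.000772) and Gm14850 (2.35, adjusted p = 0.00185) rose as well. Gm14850 had few reads, with 38 and 31 in RingKO and 29 and 0 in WT, and did not pass edgeR (adjusted p = 0.109). The summed level of these other alpha-defensins was 6095 and 9107 RPM in RingKO, 2476 and 1224 in WT, 554 in Bcat_RingKO and 2159 in Bcat.

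Other secreted products of Paneth cells did not all follow. Among the 18 listed for RingKO and WT, 5 rose and 1 fell (median 0.84), and among the 17 listed for the Bcat pair, 8 were at least 2-fold lower and 4 at least 2-fold higher. The pentraxin gene Mptx2 rose with a deposited log2 fold change of 2.09 (adjusted p = 1.36e-09) and had a log2 ratio of -2.31 in the Bcat pair. Its relative Mptx1 rose by far the most, with 214 and 247 RPM in RingKO, against 3.11 and 3.81 in WT (deposited log2 fold change 5.85, adjusted p = 4.92e-86). Unlike Mptx2 it was also higher in the other pair, with 113 RPM in Bcat_RingKO, against 10.8 in Bcat. The lipase-related gene Pnliprp2 rose (1.90, adjusted p = 0.00818) but had a Bcat log2 ratio of 0.12. Reg3b, an antibacterial lectin that enterocytes make as well, fell in RingKO (-2.97, adjusted p = 4.29e-30) and had a log2 ratio of -3.49 in the Bcat pair, so it was lower in both.

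Genes of Paneth cells outside the granule content did not pass the authors' test. Of 7 ligands that Paneth cells supply to stem cells, such as Egf, Wnt3 and Dll4, 0 rose and 0 fell in RingKO (median 0.04, with 2 at an unadjusted p below 0.05), while edgeR and DESeq2 each called 1 as higher, which for edgeR was Wnt3. All 7 were higher in Bcat_RingKO than in Bcat, 5 of them at least 2-fold, whereas 48.1% of all entries were lower. Their median log2 ratio was 1.46, against 0.23 over the 7365 entries averaging 50 or more. The direction was opposite to that of the 9 genes, but Wnt6 and Wnt9b had few reads in Bcat. Of 11 regulators of Paneth cell fate and position, such as Sox9, Spdef and Ephb3, 0 passed in either direction in RingKO against WT. Their median was -0.17, with 1 at an unadjusted p below 0.05, and edgeR and DESeq2 each called 1 as higher, Bhlha15 in the case of edgeR. In the Bcat pair 4 of the 11 were at least 2-fold higher in Bcat_RingKO and 3 at least 2-fold lower (median log2 ratio 0.08). The 3 lower ones, Fzd5, Tcf7l2 and Nr5a2, had few reads. Of 23 chaperone and unfolded protein response genes, which support secretion, 0 passed in RingKO against WT (median -0.09, 2 at an unadjusted p below 0.05). By edgeR 0 were higher and 1 lower. Their summed level was 6208 and 6400 RPM in RingKO, against 5923 and 6436 in WT, and 4727 in Bcat_RingKO, against 4974 in Bcat. Without RingKO library A, edgeR called 10 of the 23 as higher, in a fit that called 15.9% of all entries.

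**Figure D4:**
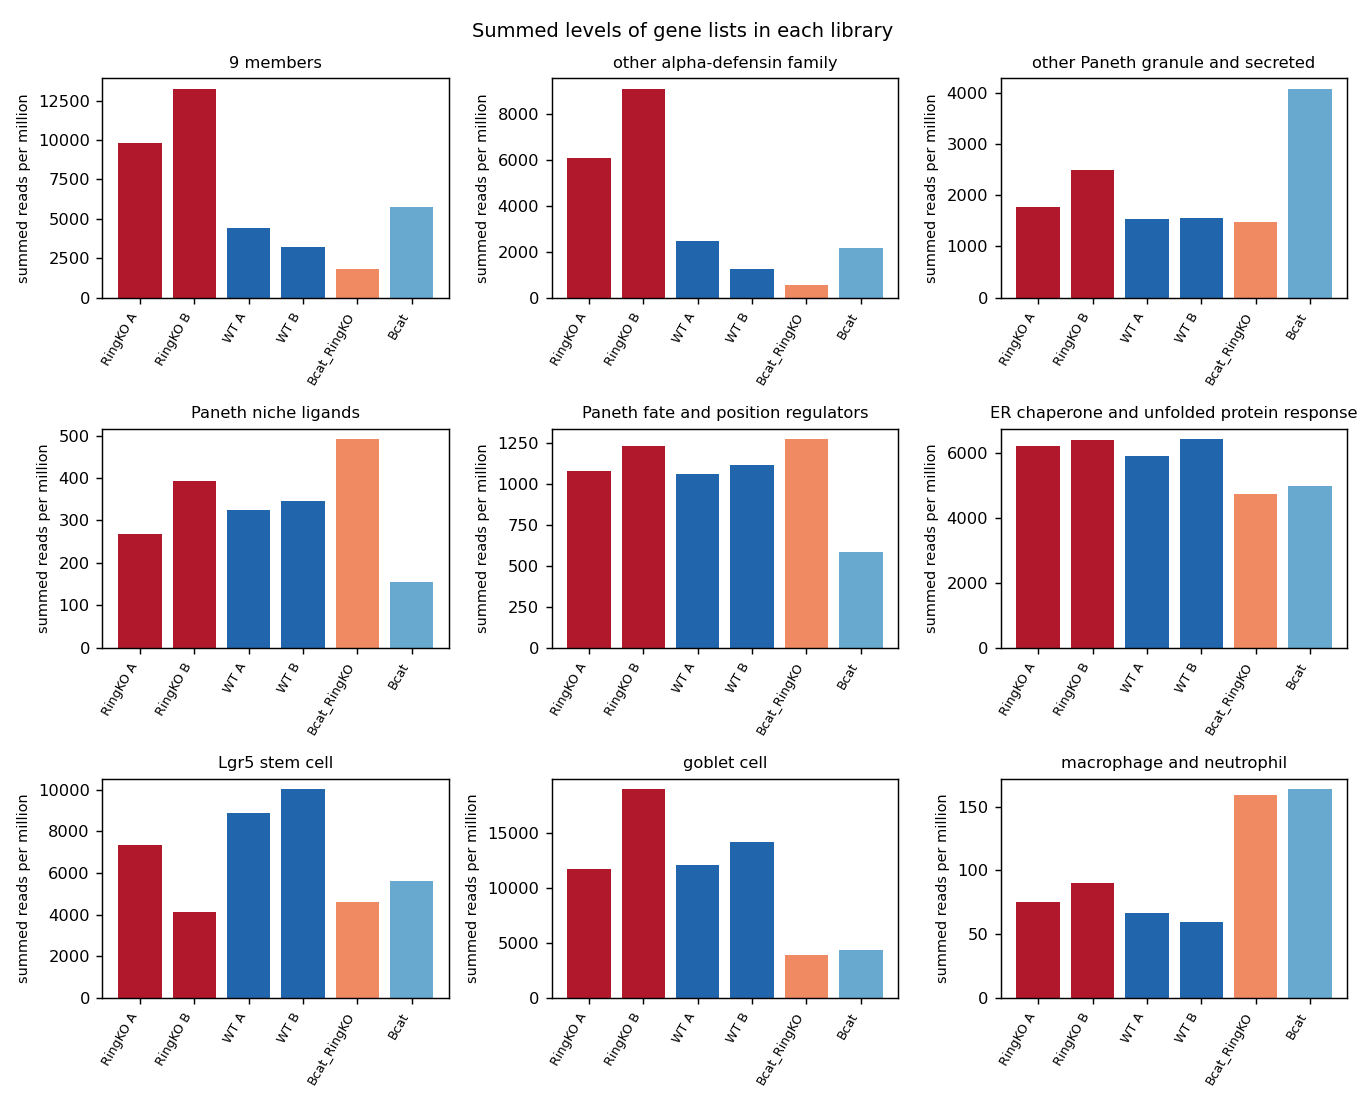
Summed RPM in each library (bars from 0, a scale of its own in each panel) for the 9 genes and 8 gene lists. The 9 genes and the other alpha-defensins are highest in the RingKO libraries and lowest in Bcat_RingKO, while the niche ligands are highest in Bcat_RingKO and the chaperone genes differ little between libraries of a pair.

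Markers of other crypt cells were summed in the same libraries. The 13 stem cell markers came to 7360 and 4115 RPM in RingKO, 8896 and 10030 in WT, 4611 in Bcat_RingKO and 5619 in Bcat. In RingKO against WT 4 of them fell and 0 rose. In the Bcat pair 8 of the 13 were higher in Bcat_RingKO and 5 lower (median log2 ratio 0.20), although the sum was lower. Of these, 4 were at least 2-fold higher and 2 at least 2-fold lower, with Olfm4 at a log2 ratio of -2.05. RingKO library B had the lower stem cell sum and the higher sum of the 9 genes of the 2 RingKO libraries. The 14 goblet cell markers came to 11680.5 and 18946.5 in RingKO, 12064.5 and 14116 in WT, 3907 in Bcat_RingKO and 4325 in Bcat (1 rose, 2 fell). In the Bcat pair 6 of the 14 goblet cell markers were at least 2-fold lower in Bcat_RingKO and 4 at least 2-fold higher (median log2 ratio -0.39). In RingKO against WT 1 of 17 enteroendocrine markers rose and 10 fell, and of 12 tuft markers 0 rose and 5 fell. The enteroendocrine sum was 793 and 964 in RingKO, 1637 and 1903 in WT, 509 in Bcat_RingKO and 2355 in Bcat, and 13 of 16 of these markers were at least 2-fold lower in Bcat_RingKO (median log2 ratio -2.61). Of 10 tuft markers in the Bcat pair 3 were at least 2-fold lower in Bcat_RingKO, with a sum of 275, against 388 in Bcat. The 17 enterocyte markers came to 2560 and 3351 in RingKO, 2477 and 2387 in WT, 3167 in Bcat_RingKO and 7041 in Bcat, and in RingKO 1 rose and 3 fell. In Bcat_RingKO 11 of 17 enterocyte markers were at least 2-fold lower (median log2 ratio -1.97). Lymphocyte markers (11) and mesenchymal and endothelial markers (11) had 0 calls in either direction by the authors' test and 0 at an unadjusted p below 0.05. Of these genes edgeR tested only 4 lymphocyte and 2 mesenchymal and endothelial markers and DESeq2 gave an adjusted p for 5 and 3, again with 0 calls. The mesenchymal sum was 2.91 in Bcat_RingKO, against 53.1 in Bcat. Of 6 acinar markers 1, Cela1, fell. The part of these cells in the Paneth gene values was not tested.

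Per transcript length, as RPM per kilobase of transcript, Defa24 was the highest of the 9 genes in RingKO (5646 and 6755) and in WT (2059 and 1352), without overlap with Lyz1 (2483 and 3749 in RingKO, 1226 and 794 in WT). Lyz1 and Itln1 followed in both groups and overlapped each other. In RingKO the order went on with Ang4, Mmp7, Cd24a, Defa3, Nupr1 and Lyz2, and neither Ang4 and Mmp7 nor Defa3 and Nupr1 differed beyond their spread. In WT the order after Itln1 was Mmp7, Cd24a, Ang4, Defa3, Nupr1 and Lyz2, and only Defa3 and Nupr1 overlapped. Ang4 thus ranked 4 in RingKO and 6 in WT. In the libraries with Ctnnb1-ex3, Defa24 ranked only 6, at 110.5 in Bcat_RingKO and 437 in Bcat, and the highest were Itln1 (363) and Lyz1 (306) in Bcat_RingKO and Lyz1 (1352) and Itln1 (1296) in Bcat.

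**Figure D5:**
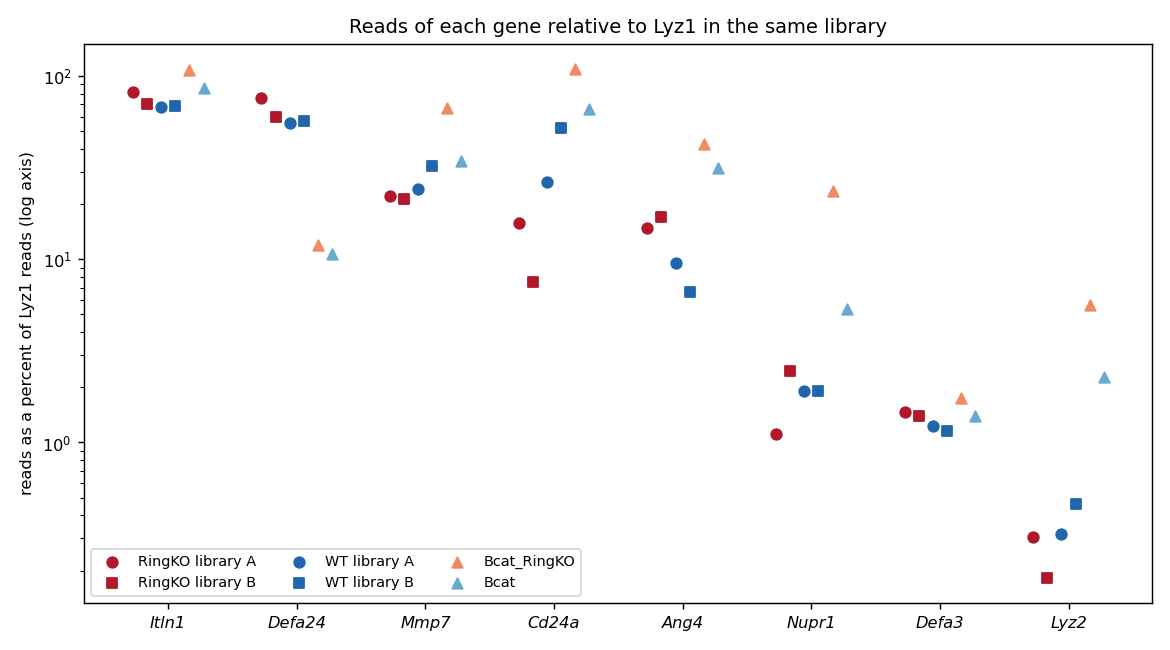
Reads of 8 of the genes as a percent of Lyz1 reads in the same library (log axis). Circles and squares are libraries A and B of RingKO and WT, and triangles are the single Bcat_RingKO and Bcat libraries. Defa24 stands at 75.4% and 59.8% in RingKO and 55.7% and 56.5% in WT, against 12.0% in Bcat_RingKO and 10.7% in Bcat.

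Ratios to Lyz1 within a library do not depend on scaling. Defa24 stood at 75.4% and 59.8% of Lyz1 reads in RingKO, 55.7% and 56.5% in WT, 12.0% in Bcat_RingKO and 10.7% in Bcat. This ratio was thus lower in both libraries with Ctnnb1-ex3 than in the 4 without. Those libraries are also the only ones of the second table, and Defa24 shares runs with other copies. The allele, the table and the assignment of reads cannot be told apart here. The other alpha-defensins together were at 2159 RPM in Bcat, between the 2476 and 1224 of the WT libraries. Itln1 and Defa3 had the narrowest relative ranges, at 67.6% to 107% and 1.16% to 1.74% over the 6 libraries. Ang4 stood at 14.9% and 17.0% in RingKO, 9.56% and 6.61% in WT, 42.6% in Bcat_RingKO and 31.4% in Bcat. The ratio of Ang4 was thus higher in both RingKO libraries than in both WT libraries, and higher still in both libraries with Ctnnb1-ex3. Mmp7 stood at 22.3% and 21.3% in RingKO, 24.2% and 32.4% in WT, 67.3% in Bcat_RingKO and 34.2% in Bcat. Cd24a had the widest spread of the abundant genes, from 7.50% in RingKO library B to 109% in Bcat_RingKO.

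Among the entries outside the 9 genes whose profile over the 6 libraries was nearest to the median profile of the 9 were Mt1, Pglyrp1, Clps and Ifitm3. Nearness was the Euclidean distance between centred log2 RPM, 1.11 to 1.28 for these entries, among 7172 entries averaging 50 or more in both tables. The 9 genes themselves make up that profile, so their own distances cannot be set against those of outside entries. Among the 9, Mmp7 (0.55), Itln1 (0.73) and Defa3 (0.75) lay nearest to it and Defa24 (3.83) lay farthest. Mt1, a metallothionein gene, had 238 and 377 RPM in RingKO, against 204 and 158 in WT, and 118 in Bcat_RingKO, against 169 in Bcat. Pglyrp1, a secreted peptidoglycan-binding protein gene, had 374 and 498 in RingKO, against 278 and 242 in WT, and 170 in Bcat_RingKO, against 226 in Bcat. Neither passed the authors' test (adjusted p = 0.601 for Mt1 and 0.0539 for Pglyrp1), although Pglyrp1 passed edgeR's (adjusted p = 0.0207).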

How the data were processed

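Messenger RNA was sequenced (TruSeq RNA v2, per the labels) from 6 libraries in 4 groups. Reads were mapped with TopHat to mm9 and compared with DESeq, per the submitters' processing notes, which give no versions. The deposited tables hold a normalized signal per RefSeq entry, in which the authors' values equal reads plus 1 divided by a size factor. The first table holds means of 2 libraries, and the second single libraries. The fold or ratio, its log2 value, the p-value and the adjusted p of each entry are the authors' own, as deposited.

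Reads of single libraries were recovered from the deposited values. In the second table a value was taken as a whole number of reads within a tolerance of 0.001. The group means of the first table were solved more tightly, within the rounding of their digits. In WT 18357 of 18376 entries had a single solution and in RingKO 18375, every one of the 9 genes among them. The planned count test therefore became an alternative and the authors' adjusted p the main call. The recovered reads were fitted over all entries with edgeR 4.0.16 (quasi-likelihood test), DESeq2 1.42.0 and limma 3.58.1 (limma-trend on log2 of the normalized value plus 1, mean of at least 10) in R 4.3.3, with Benjamini-Hochberg adjustment, after tests on simulated data. The p-values deposited for the Bcat pair rest on 1 library per group and were not used; its ratios have exact conditional binomial 95% intervals (scipy 1.17.1), which cover counting error only. The deposited fold changes carry the added read, which pulls those of low genes towards a ratio set by the size factors. In the Bcat pair, with size factors of 0.447 for Bcat and 2.24 for Bcat_RingKO, this favours a lower value in Bcat_RingKO. Counts of entries at least 2-fold lower in that pair can include such genes. The size factors of both RingKO libraries were below those of both WT libraries, which favours a higher value in RingKO. The genes and lists were chosen with earlier results of these data known. For each symbol the entry with the highest mean was used. Alternatives changed the tool, scaling, low-count filter, added read, row summing and each library; summing the defensins for the test of the difference was chosen after seeing the data. Sequences came from build GRCm38, and no coordinate of the mm9 data is given. One of the entries nearest in profile is not reported here.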

Additional observations from a re-analysis of the deposited data

Results flagged for a closer look

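For 8 of the 9 genes the change in RingKO against WT differed from that between the single Bcat_RingKO and Bcat libraries, by an interaction test in edgeR that takes its spread from RingKO and WT alone. The difference, RingKO minus WT less Bcat_RingKO minus Bcat, was 4.60 log2 units for Ang4, 4.18 for Defa24, 4.10 for Lyz1, 4.02 for Defa3, 3.93 for Itln1, 2.79 for Mmp7, 2.12 for Lyz2 and 1.63 for Cd24a. Each rests on 1 Bcat_RingKO and 1 Bcat library, whose own spread was not measured. The Bcat library was the shallowest, and the genotype and the library cannot be told apart in that pair.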

How the results depend on the processing

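The number of the 9 genes called in RingKO against WT stayed at 6 with DESeq2, limma-trend, edgeR, DESeq2 size factors and summed rows, was 7 with no low-count filter (Nupr1, adjusted p = 0.0481 by edgeR), and ran from 5 to 7 when each library was left out. Cd24a, at -0.26 in the authors' table and -0.08 by edgeR with all libraries, was at 0.16 by edgeR without RingKO library B and 0.09 without WT library B, in a range of -0.37 to 0.16 with 1 library left out; the cause was not tested. The number with a difference between the Ring effects ran from 7 to 9 with 1 library left out. Over all entries the authors called 577 higher and 323 lower, edgeR 1107 and 330, DESeq2 872 and 240, and limma-trend 749 and 573. With 1 library left out, edgeR called 10 to 15 other alpha-defensins higher, 0 to 10 chaperone genes higher, 0 to 8 stem cell markers lower and 0 to 8 enterocyte markers higher. TMM scaling left 8 rather than 7 of the genes at least 2-fold lower in the Bcat pair. Computed without the added read, it shifts the scale of the log2 ratios by -0.22 against the authors' size factors, giving -2.41 for Lyz1, -2.09 for Itln1, -1.97 for Ang4, -1.68 for Cd24a and -1.43 for Mmp7. No paired analysis was possible because the first table holds group means and the recovered libraries carry no replicate number. Depth limits Defa3 and Lyz2 most in the Bcat pair, with 22 and 36 reads in Bcat.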
